A study of Mus musculus with 24 samples.

Results

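Cela1, Cela2a, Cela3a, Cela3b, Ctrb1, Ctrl, Ctrc, Cpa1 and Cpb1 are mouse genes named for the elastases, chymotrypsinogens and carboxypeptidases of the exocrine pancreas. Of these, Ctrc is listed by RefSeq as a transcribed pseudogene and by GENCODE M21 as protein coding. The 9 genes were taken by symbol, through their Ensembl identifiers, from a table of 51912 genes, and all 9 were found in it. RNA was sequenced from the whole pancreas of 24 mice of the inbred strain C57Bl/6J, 12 males and 12 females. Each mouse was normal circadian or circadian disrupted, and was taken early (day 1) or late in re-entrainment (day 8 for females, day 9 for males), which gave 8 groups of 3 mice. The zeitgeber times on the labels, which count hours since lights on, put every mouse at hour 8 of its day. How the rhythm was disrupted is not given in the sources used here. Late males and late females differ in day as well as in sex, so sex and day cannot be told apart at the late time point.

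These enzymes are made in acinar cells, stored in zymogen granules as inactive precursors and released into the duodenum after a meal. There trypsin cleaves the precursors into active proteases. Elastases and chymotrypsins are serine endopeptidases that cut inside a protein chain, elastases beside small residues and chymotrypsins beside large hydrophobic ones. Carboxypeptidase A1, the product of Cpa1, trims aromatic and aliphatic residues from the chain's end, and carboxypeptidase B1, from Cpb1, trims lysine and arginine. In acinar cells their genes are switched on together by the PTF1 complex, which holds the transcription factors Ptf1a and Rbpjl.

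Cela3a and Cela3b are neighbours on the minus strand of chromosome 4, 11207 bases apart, and their levels differed widely, so their upstream sequences are shown. The 250 bases before the RefSeq start of Cela3a (GRCm38.p6, chr4:137409792-137410041) and of Cela3b (chr4:137430521-137430770) were 92.4% identical over 237 aligned bases. Capitals mark the bases of each that differed from, or had no partner in, the other.
Cela3a: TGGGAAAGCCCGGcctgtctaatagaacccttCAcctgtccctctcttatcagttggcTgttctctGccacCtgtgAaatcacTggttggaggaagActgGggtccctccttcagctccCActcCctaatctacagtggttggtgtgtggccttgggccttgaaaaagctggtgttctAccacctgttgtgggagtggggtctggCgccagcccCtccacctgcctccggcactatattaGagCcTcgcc
Cela3b: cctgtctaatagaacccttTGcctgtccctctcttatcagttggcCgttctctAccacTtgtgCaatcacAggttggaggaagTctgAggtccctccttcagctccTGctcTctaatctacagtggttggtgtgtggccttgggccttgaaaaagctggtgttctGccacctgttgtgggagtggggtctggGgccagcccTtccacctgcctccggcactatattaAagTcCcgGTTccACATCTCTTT
Of each promoter, 31 bases are in capitals, which include the unpaired ends at the left of Cela3a and at the right of Cela3b. Their principal transcripts in the GENCODE M21 annotation were 94.5% identical over 916 aligned bases, with a longest identical run of 163 bases. Reads from such stretches are shared between both genes by estimation in RSEM, so the low count of Cela3a is uncertain.

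Ctrc and Cela2a also share sequence, by annotation. Ctrc lies on the minus strand of chromosome 4 (GRCm38, chr4:141814962-141846359) and Cela2a lies inside its annotated span (chr4:141814962-141826160, same strand). In GENCODE M21, 1 Ctrc transcript is spliced to the downstream part of exon 6 and to exons 7 and 8 of Cela2a, so that 305 exonic bases belong to both genes, 21.4% of the exonic bases of Ctrc and 17.7% of those of Cela2a. The 58 shared bases of exon 6 of 8 (chr4:141818982-141819039, minus strand) are shown because they are identical in transcripts of both genes; the rest of that exon is annotated to Cela2a alone.
Shared part of exon 6: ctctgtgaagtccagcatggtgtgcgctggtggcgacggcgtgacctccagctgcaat
RefSeq lists the mouse Ctrc gene as a transcribed pseudogene, while GENCODE M21 lists it as protein coding. In GENCODE M21, 94 exonic bases of Cela2a and of Ctrc lie opposite exons of Casp9, and without a stated strand setting reads of either strand cannot be told apart there.

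**Figure D1:**
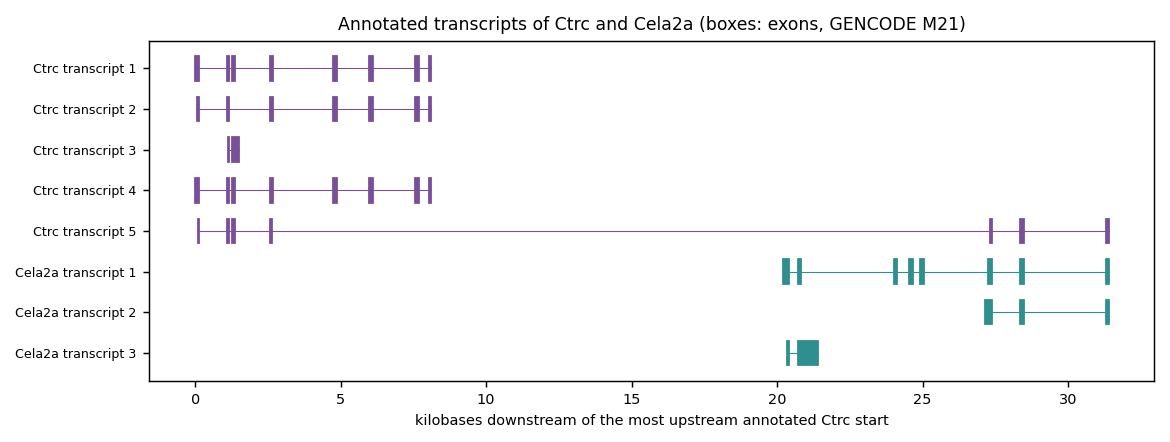
Annotated exons (boxes) of the transcripts of Ctrc (purple) and Cela2a (green), plotted by distance in kilobases downstream of the most upstream Ctrc start. The lowest Ctrc transcript joins 4 upstream exons to part of exon 6 and to exons 7 and 8 of Cela2a, and the other Ctrc transcripts end before Cela2a begins.

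Together the 9 genes took 26.5% ± 0.944 of all counts (SD, n = 24 mice), from 25.1% in the lowest mouse to 28.3% in the highest. The mean share was 26.8% ± 1.06 in normal circadian early mice, 26.4% ± 0.839 in disrupted early mice, 26.3% ± 0.702 in normal circadian late mice and 26.6% ± 1.27 in disrupted late mice (SD, n = 6 each). The ranges of the 4 groups overlapped. A wider list of 46 secreted-enzyme and granule genes, the 9 included, took between 82.05% and 83.84% of the counts of every mouse, so the libraries were made up mainly of acinar RNA. In whole tissue fewer cells of a type and less RNA per cell cannot be told apart. Libraries held 31325562 to 62390463 expected counts, and levels are given as CPM (counts scaled to a common library total) with TMM factors of 0.943 to 1.12.

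Levels per length ran from Ctrb1 down to Cela3a. To set genes side by side, CPM was divided by the length in kilobases of each gene's principal transcript, and these length-scaled levels are means ± SD over 24 mice. Ctrb1, chymotrypsinogen B, was highest at 73360 ± 8152 CPM per kilobase. Cela2a followed at 51591 ± 4504 and Cela1 at 38943 ± 2788. In each of the 24 mice Ctrb1 was above Cela2a, and Cela2a above Cela1.
Cpa1 stood at 21296 ± 1820 and Ctrl, a chymotrypsin-like protease, at 20998 ± 1694, and Cpa1 was the higher of these in only 14 of 24 mice, so their order did not hold beyond the spread. Cela3b at 15904 ± 1717 was above Cpb1 at 13193 ± 940 in 23 of 24 mice.

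Ctrc and Cela3a sat far below the rest. Ctrc, known in humans as the chymotrypsin that degrades trypsinogen, was at 173 ± 27.8 CPM per kilobase, so that Ctrb1 was 424-fold higher. Cela3a was at 8.12 ± 3.15 CPM per kilobase, and its neighbour Cela3b was 1960-fold higher on average and between 1160-fold and 4213-fold higher in single mice. The expected count of Cela3a was 129.9 to 759.8 per mouse and made up 0.0245% to 0.0892% of the count of Cela3b. The count of Ctrc made up 0.240% to 0.408% of the count of Cela2a, the gene with which it shares exons. For both low genes, misassignment of a small part of the neighbour's reads was not tested.

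The mice varied little in the abundant members. The coefficient of variation of CPM over the 24 mice was 7.12% for Cpb1, 7.16% for Cela1, 8.07% for Ctrl, 8.55% for Cpa1 and 8.73% for Cela2a. It was 10.8% for Cela3b and 11.1% for Ctrb1, close to the median of 9.65% over the 646 genes with a mean log2 CPM of at least 5. Ctrc reached 16.0% and Cela3a 38.9%.

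**Figure D2:**
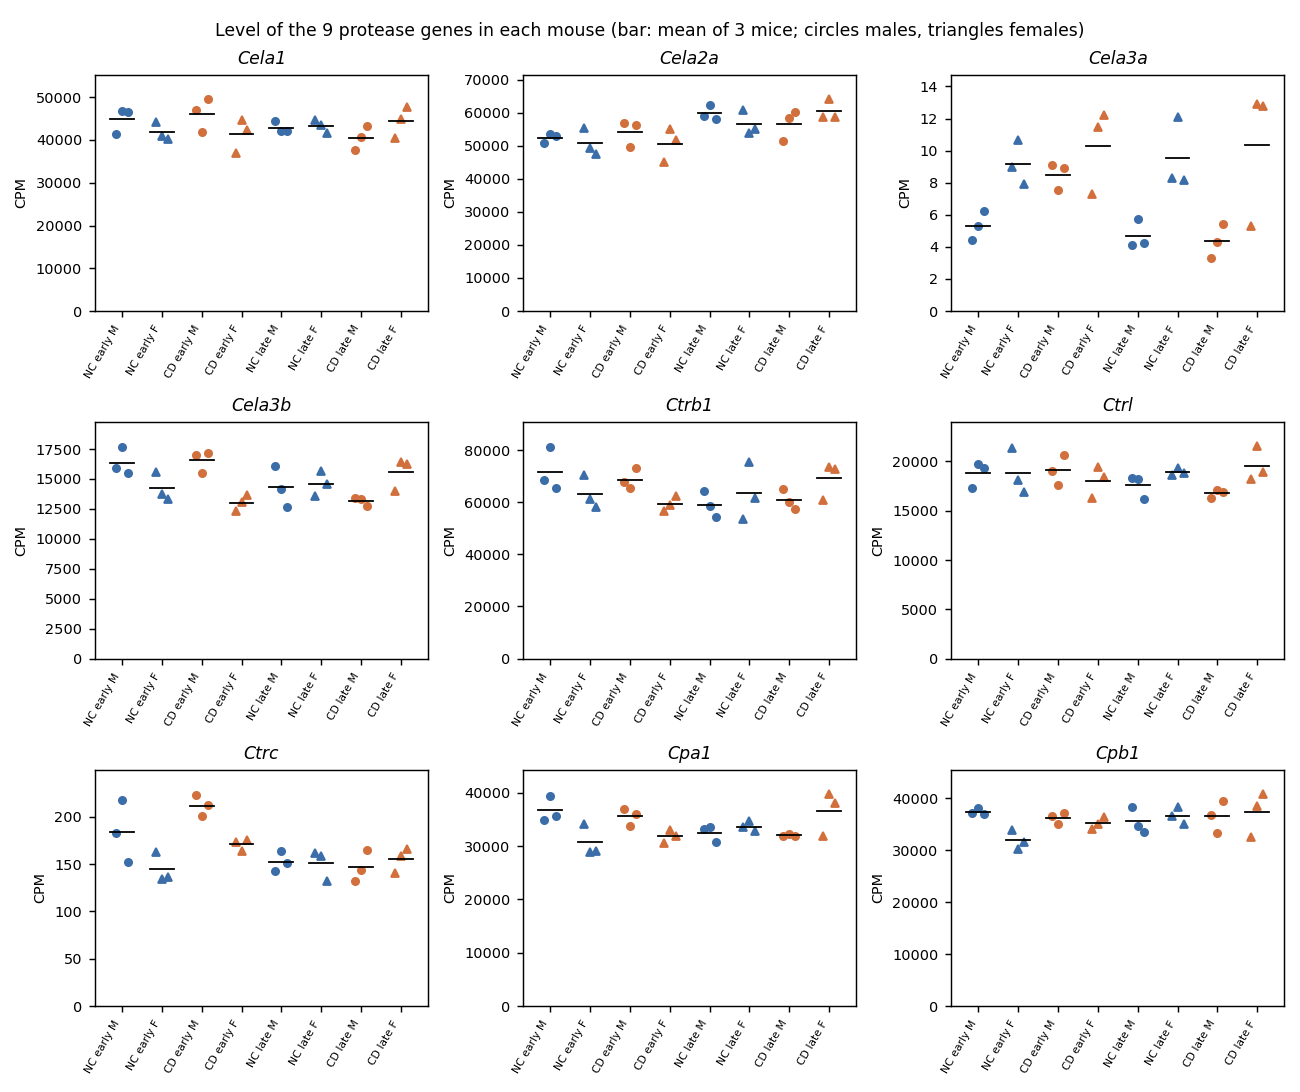
CPM of each of the 9 genes in each mouse by group (NC, normal circadian; CD, circadian disrupted; M, circles, males; F, triangles, females), with a bar at the mean of 3 mice and each axis starting at 0. The levels of 7 genes lie in narrow bands, Ctrc is highest in disrupted early males (201 to 223 CPM), and the mean of Cela3a is lower in males than in females in each of the 4 pairs of groups.

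The first question was whether disruption altered the enzyme transcripts at the early time point. None of the 9 genes passed (edgeR's quasi-likelihood test, Benjamini-Hochberg adjusted p under 0.05), where 4.56% of the 14000 genes tested did. At an unadjusted p under 0.05 there was 1 of 9, where 17.7% of all genes had one, and DESeq2 called 0. Ctrb1 ranged from 58197 to 81122 CPM with a median of 66796 in normal circadian early mice, and from 56778 to 72936 with a median of 63799 in disrupted early mice. Cpa1 ranged from 28859 to 39435 CPM in normal circadian early mice and from 30565 to 36933 in disrupted early mice, at means of 33704 and 33721. The groups overlapped for every member, where 2.31% of all genes had groups that did not overlap. The 95% interval of the fold change of Ctrb1 was 0.852 to 1.06. For Cpb1 the interval was 0.956 to 1.12, and those of the other 5 abundant members lay between these outer bounds.

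The members with the most positive early estimates were the pair of low genes. Ctrc was at 182.8, 218.2 and 152.0 CPM in normal circadian early males and at 162.6, 134.3 and 136.2 CPM in the females. In disrupted early mice it was at 222.6, 200.5 and 212.1 CPM in males and at 173.8, 164.0 and 175.8 CPM in females. All disrupted females lay above the normal circadian females, while 1 normal circadian male lay among the disrupted males. The log2 fold change was 0.22 ± 0.08 (SE), a ratio of 1.17 with a 95% interval of 1.05 to 1.30, and it did not pass (edgeR adjusted p = 0.108). Without normal circadian early male 2, the highest of its group, it passed at an edgeR adjusted p of 0.0253, and without the filter on low counts at 0.0341. Cela3a had a mean of 9.41 ± 2.02 CPM in disrupted early mice against 7.25 ± 2.36 (SD, n = 6 each), a log2 fold change of 0.42 ± 0.20 (edgeR adjusted p = 0.295).

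At the late time point none of the 9 genes passed either, where 1.35% of all genes did, and the count was 0 of 9 at an unadjusted p under 0.05, where 14.6% of all genes had one, and 0 with DESeq2. Ctrb1 ranged from 53587 to 75368 CPM in normal circadian late mice and from 57334 to 73549 CPM in disrupted late mice, a ratio of 1.06 with a 95% interval of 0.950 to 1.18. Ctrc was at 151.9 ± 12.2 CPM in normal circadian late mice and at 150.9 ± 14.2 CPM in disrupted late mice (SD, n = 6 each). Cela3a had medians of 6.94 and 5.37 CPM in these groups, with ranges of 4.10 to 12.1 and 3.30 to 12.9. The median log2 fold change of the members was 0.012 early and -0.0018 late, and over all genes tested it was 0.0043 and -0.0023.

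Whether the condition effect differed between early and late was tested directly. No member passed that test, where 4.77% of all genes did, and 1 of 9 had an unadjusted p under 0.05, as did 17.96% of all genes (DESeq2 called 0). That member was Ctrc, with a difference of -0.23 ± 0.11 on the log2 scale (edgeR adjusted p = 0.260). Whether the condition effect differed between the sexes was tested at each time. No member was called early, where 0.0% of all genes passed, or late, where 0.0286% did, and at both times DESeq2 called 0. An unadjusted p under 0.05 was found for 0 of 9 members at both times, and for 5.59% of all genes early and 6.46% late.

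**Figure D3:**
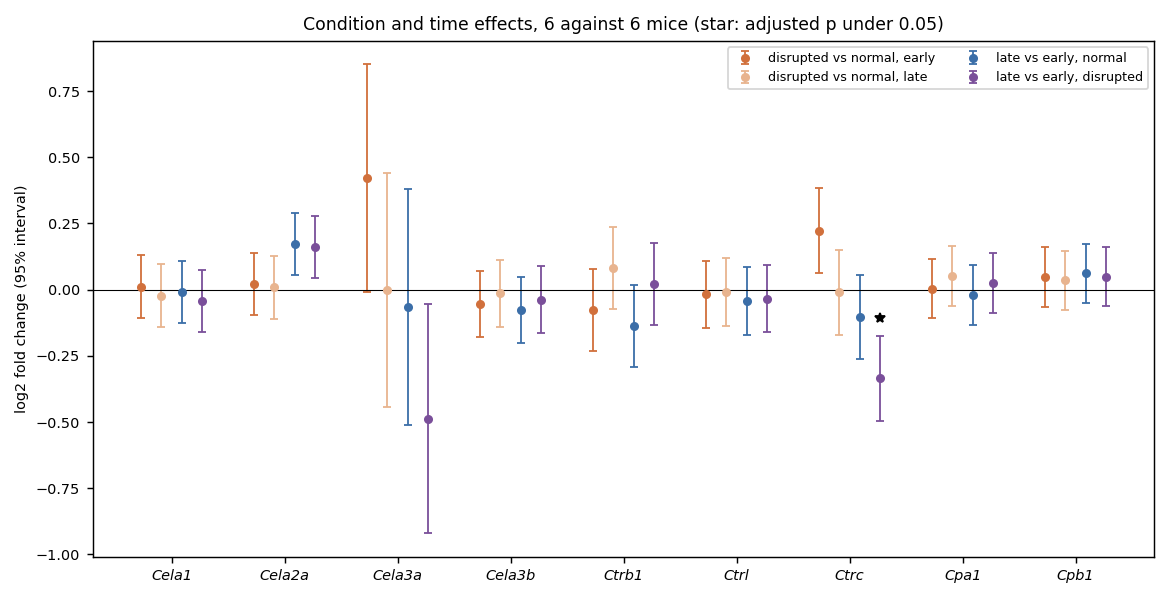
Log2 fold change with its 95% interval for each gene in 4 comparisons of 6 against 6 mice, disrupted over normal circadian at each time and late over early in each condition. The star marks the one called value, the fall of Ctrc in disrupted mice, and Cela2a lies above 0 in both late over early comparisons without passing.

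In disrupted mice Ctrc fell from early to late. The disrupted late mice were at 131.8, 143.6 and 165.1 CPM in males and at 140.6, 158.9 and 165.7 CPM in females, against the disrupted early values of 164.0 to 222.6 given above. The lowest early mouse lay among the highest late mice, and otherwise the groups were apart, with the late mouse higher in 2 of 36 pairs. The log2 fold change was -0.34 ± 0.08, a ratio of 0.793 with a 95% interval of 0.709 to 0.885 (edgeR adjusted p = 0.0045). It was the single member called, where 13.9% of all genes were called, 6.55% of them downward and 7.36% upward, so 1 of 9 is near the background. The disrupted early mice in this comparison are the same as in the early condition comparison.

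The fall of Ctrc was called in each of the 24 fits that left out 1 mouse, with log2 fold changes from -0.38 to -0.30. Those fits that left out a normal circadian mouse kept all the mice compared. Fitted in males alone it was -0.53 ± 0.11 (edgeR adjusted p = 0.0117), and in females alone -0.15 ± 0.10 (edgeR adjusted p = 0.349). Over the same mice the count of Ctrc went from a median of 0.382% of the Cela2a count early to 0.252% late. In normal circadian mice the Ctrc mean was 164 CPM early and 152 CPM late (log2 fold change -0.10 ± 0.08, edgeR adjusted p = 0.596).

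Cela2a was higher late than early in both conditions, without passing. It ranged from 47525 to 55502 CPM in normal circadian early mice and from 53925 to 62367 CPM in normal circadian late mice. The late mouse was the higher in 34 of 36 pairs, for a log2 fold change of 0.17 ± 0.06 (edgeR adjusted p = 0.150). In disrupted mice it ranged from 44931 to 56967 CPM early and from 51335 to 64066 CPM late, with the late mouse higher in 32 of 36 pairs and a log2 fold change of 0.16 ± 0.06 (edgeR adjusted p = 0.0612). The disrupted value passed with DESeq2 (adjusted p = 0.0426), without the filter on low counts (edgeR adjusted p = 0.0153) with library totals in place of TMM scaling (edgeR adjusted p = 0.0336), and when normal circadian early female 1, disrupted early female 2 or disrupted late male 1 was left out. In normal circadian mice none of the 9 members was called late against early, where 0.843% of all genes were, while Cela2a alone had an unadjusted p under 0.05, as did 13.6% of all genes, and DESeq2 called 0.

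In the main fit, over both sexes, the other members showed no time difference that passed. Cela3a and Cela3b passed in disrupted males alone, besides Ctrc, in a fit that called 852 of 13344 genes. In disrupted females alone no member passed, where 1084 of 13699 genes did. Late males were taken a day after late females, and a sex difference of the change within disrupted mice alone was not tested. Cela1 was at 43347 and 43065 CPM early and late in normal circadian mice and at 43736 and 42445 CPM in disrupted mice. Cpb1 was at 34671 and 36080 CPM in normal circadian mice and at 35723 and 36955 CPM in disrupted mice. Cela3a in disrupted mice had a log2 fold change of -0.49 ± 0.21 (edgeR adjusted p = 0.129), and fitted in males alone it was -0.98 ± 0.17 (edgeR adjusted p = 0.0025). Its mean in disrupted females was 10.31 CPM early and 10.33 CPM late. Cela3b was lower late in disrupted males alone, at -0.34 ± 0.08 (edgeR adjusted p = 0.0118), and in disrupted females its value was 0.25 ± 0.09 (edgeR adjusted p = 0.0967).

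Males and females were then set against each other early, where both were taken on day 1. Cela3b and Ctrc were higher in males, 2 of 9 members, where 0.893% of all genes were called and 0.4% were called higher in males. Cela3b was at 15877, 17690 and 15509 CPM in normal circadian early males and at 16972, 15542 and 17206 CPM in disrupted early males. In females it was at 15567, 13772 and 13303 CPM and at 12307, 13070 and 13691 CPM. One female, normal circadian early female 1, reached the level of the lowest males, and the other 5 lay below every male. The log2 fold change was 0.28 ± 0.06, a ratio of 1.21 (edgeR adjusted p = 0.0250). Ctrc, with the values given above, was 198 CPM in males against 158 CPM in females, a log2 fold change of 0.33 ± 0.08 (edgeR adjusted p = 0.0366).

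Except for Cela3a, the estimate was positive for every member. Cpa1 was at 36126 CPM in males and 31299 CPM in females, with the male higher in 35 of 36 pairs (log2 fold change 0.21 ± 0.05, edgeR adjusted p = 0.0665). Ctrb1 was at 70136 and 61274 CPM (0.20 ± 0.08 on the log2 scale, edgeR adjusted p = 0.204). Cela3a had the opposite sign, with 6.92 CPM in males and 9.75 CPM in females (-0.53 ± 0.20 on the log2 scale, edgeR adjusted p = 0.215).

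The early sex differences are relative to the bulk of genes. TMM factors had medians of 0.954 in early males and 1.06 in early females, beside a share of the 46 secreted genes with medians of 83.52% and 82.65%. When libraries were scaled by their totals alone, an alternative chosen after seeing the data, the median log2 fold change of all genes moved to -0.13, and calls over all genes went from 56 higher and 69 lower in males to 25 higher and 769 lower. On that scale Cela3b was at 0.14 ± 0.05 (edgeR adjusted p = 0.0654) and Ctrc at 0.19 ± 0.07 (edgeR adjusted p = 0.0941), neither called, and Cela1 (-0.003), Cela2a (-0.06) and Ctrl (-0.09 ± 0.04) changed sign without being called, Cpb1 was at 0.0, and Cela3a at -0.67 passed (edgeR adjusted p = 0.0457). Relative to the median of all genes, Cela3b was 0.27 and Ctrc 0.33 higher in males on the log2 scale under either scaling. A change of scaling shifts all genes by nearly the same amount, so this likeness was fixed in advance and is no support for the calls.

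**Figure D4:**
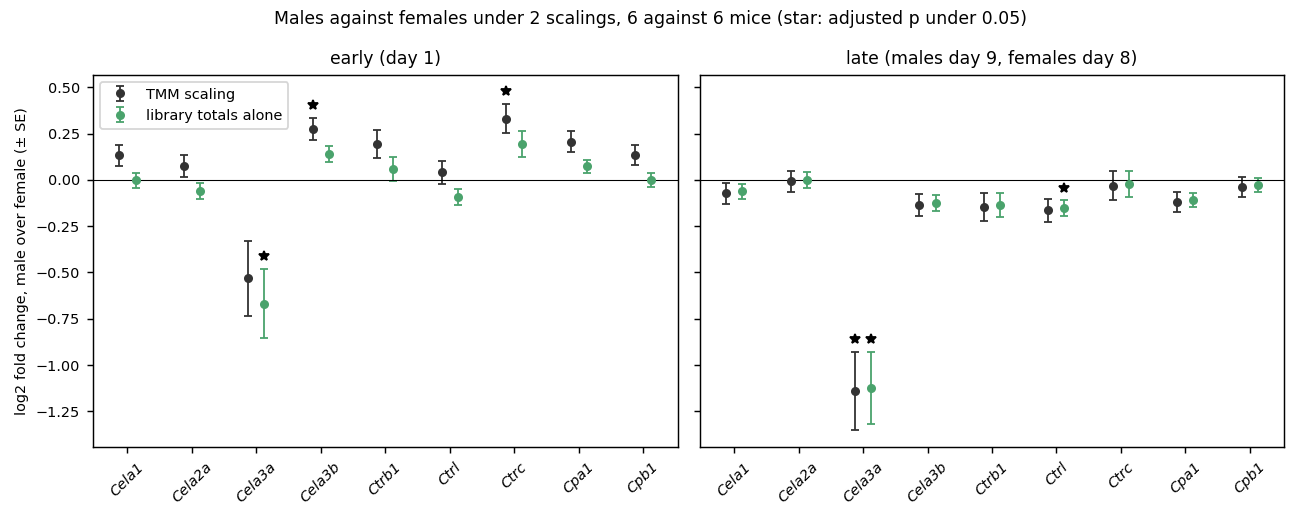
Log2 fold change of males over females for each gene at the early time (left) and the late time (right), with TMM scaling (black) and scaling by library totals alone (green), bars showing the SE and stars the called values. Early, 8 of 9 TMM values are above 0 and the totals-scaled values lie lower; late, all 9 TMM values are below 0 and Cela3a is lowest at -1.14.

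Leaving out 1 mouse also bore on the early sex calls. Cela3b was called in 19 and Ctrc in 16 of 24 such fits, and the number of members called ran from 0 to 3. Every fit that lost either call had left out an early mouse, while fits without a late mouse kept all the mice compared. None was called without normal circadian early male 2, without normal circadian early female 2 or 3, without disrupted early male 1, or without disrupted early female 1. A single member was called without normal circadian early male 1, disrupted early male 2 or disrupted early female 2. Ctrc was not called with upper quartile scaling (edgeR adjusted p = 0.0618) or when only the early groups entered the fit (edgeR adjusted p = 0.0685).

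The late comparison of the sexes was added after the values were seen. Of the 9 members 1 was called, where 9.37% of all genes were, and 3.88% in its direction, so 1 of 9 is near the background. That member was Cela3a, which was lower in late males. It was at 4.10, 5.72 and 4.25 CPM in normal circadian late males and at 3.30, 4.30 and 5.42 CPM in disrupted late males. In late females it was at 8.28, 12.1 and 8.17 CPM and at 5.32, 12.9 and 12.8 CPM. Disrupted late female 1 lay among the males, and every other female lay above all of them. The log2 fold change was -1.14 ± 0.21, a ratio of 0.454 (edgeR adjusted p = 0.0027), and with library totals it was -1.12. The Cela3b level at this time was 13738 CPM in males and 15085 CPM in females, a log2 fold change of -0.14 ± 0.06 (edgeR adjusted p = 0.182). The Cela3a count was 0.0245% to 0.0425% of the Cela3b count in late males and 0.0380% to 0.0785% in late females. The other 8 members had negative estimates that did not pass, among them Ctrl at -0.16 ± 0.06 (edgeR adjusted p = 0.09997).

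The change from early to late was compared between the sexes, also after the values were seen. It differed for Cela3b and Cpa1, 2 of 9 members, where 3.69% of all genes passed and 1.59% in this direction. Cela3b had a mean of 16466 ± 940 CPM in early males and 13738 ± 1284 CPM in late males, and of 13618 ± 1090 CPM in early females and 15085 ± 1215 CPM in late females (SD, n = 6 each). The male change minus the female change was -0.41 ± 0.09 on the log2 scale (edgeR adjusted p = 0.0104). Cpa1 went from 36126 to 32281 CPM in males and from 31299 to 35140 CPM in females, a difference of -0.33 ± 0.08 (edgeR adjusted p = 0.0188). Both were called in each of the 24 fits that left out 1 mouse. In a list of 9 other pancreatic proteases and inhibitors, 3 genes were called in the same direction for this difference. They were Prss3 (-3.50 ± 0.89), Try10 (-0.70 ± 0.15) and Spink1 (-0.36 ± 0.10), named after their values were seen.

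All 9 members had negative estimates of this difference with TMM scaling, and with library totals Cela2a alone turned positive, at 0.06. With library totals the median over all genes moved to 0.14 and calls over all genes went from 293 positive and 223 negative to 999 positive and 61 negative, while Cela3b stayed called at -0.27 (edgeR adjusted p = 0.0116) and Cpa1 at -0.18 (edgeR adjusted p = 0.0313). DESeq2 called 4 members, Ctrb1 and Ctrc besides these, where it called 632 of 14000 genes. Since late males were taken a day after late females, sex and day cannot be told apart in this difference.

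Members that were near in level or on the chromosome were not always near in their variation. Pearson's r of log2 CPM over 24 mice, taken on deviations from the group means, was 0.898 between Cela3b and Ctrb1, 0.809 between Ctrl and Cpa1 and 0.807 between Cela3b and Cpa1. It was 0.437 between the neighbours Cela3a and Cela3b, 0.439 between Ctrc and Cela2a, and lowest at 0.061 between Cela2a and Ctrb1. These values describe mice whose genes share a library and a scaling factor.

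**Figure D5:**
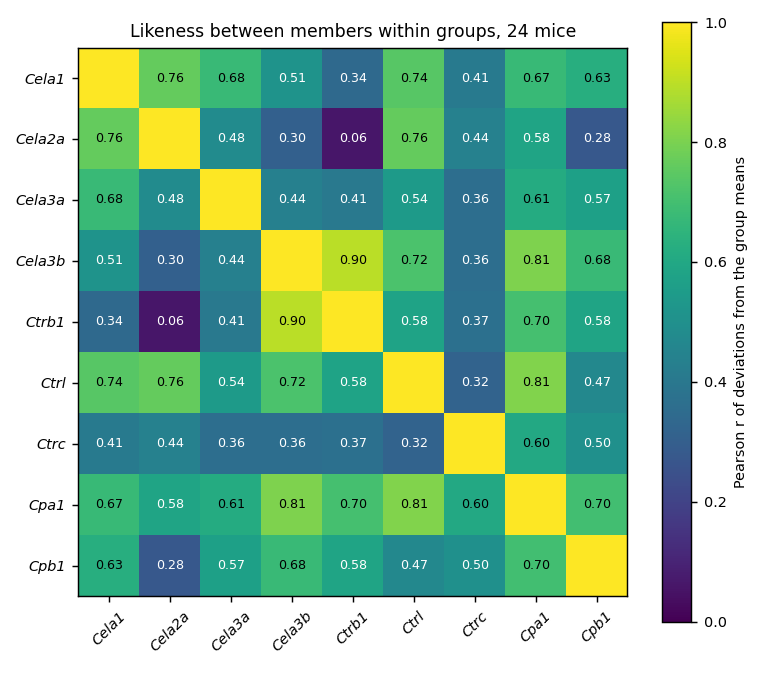
Pearson's r between each pair of members over 24 mice after subtracting the group means of log2 CPM. Cela3b and Ctrb1 form the brightest cell (0.90) and Cela2a and Ctrb1 the darkest (0.06).

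Genes outside the list with a mean log2 CPM of at least 5 were searched by Pearson's r of log2 CPM over 24 mice, group means kept in. Among them, those nearest to the members' mean pattern were Reep5 (r = 0.795), Clps (0.718), Gm5771 (0.714), Rab3d (0.709) and Cox4i1 (0.708). Clps encodes colipase and Rab3d a granule GTPase of acinar cells. For single members the nearest gene was Ggt1 for Cela2a (r = 0.904), Gm5771 for Ctrb1 (0.834), Cd164 for Ctrc (0.814), Zg16 for Cpa1 (0.801) and Rnase1 for Cpb1 (0.799). It was Cox4i1 for Ctrl (0.776), Rab3d for Cela1 (0.763), Ifrd1 for Cela3a (0.756) and Rpl38 for Cela3b (0.717). Zg16 encodes a granule matrix protein and Rnase1 the pancreatic ribonuclease.

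Other acinar genes were read in the same fits from 4 lists. Early, the disrupted mice had higher Ptf1a, a subunit of PTF1 (0.55 ± 0.13 on the log2 scale, edgeR adjusted p = 0.0169), and Gata4, another acinar transcription factor (0.29 ± 0.08, edgeR adjusted p = 0.0350), 2 of 8 transcription factors tested, where 4.56% of all genes were called. Rab27b, a GTPase of granule release, was higher too (12.4 against 8.24 CPM, 0.59 ± 0.07 on the log2 scale, edgeR adjusted p = 3.5e-06), the only 1 of 13 granule genes called. Of the 9 other proteases and inhibitors and the 15 amylases, lipases and nucleases none was called early, and late none of these 4 lists held a called gene.

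From early to late in disrupted mice 3 of 8 transcription factors rose and 1 fell, where 7.36% of all genes were called higher and 6.55% lower. Bhlha15, which builds up the secretory apparatus, rose from 185 to 275 CPM (0.56 ± 0.12 on the log2 scale), Nr5a2 by 0.37 ± 0.10 and Xbp1 by 0.18 ± 0.06, while Gata4 fell by 0.39. Of 13 granule genes 2 rose, Sycn by 0.28 ± 0.09 and Itpr3 by 0.23 ± 0.06, and 2 fell, Rab27b by 0.70 and Tff2 by 0.35. The phospholipase gene Pla2g1b fell by 0.45, 1 of 15 in its list, and none of the 9 other proteases and inhibitors was called. These edgeR adjusted p-values ran from 7.8e-08 for Rab27b to 0.0392 for Sycn. In normal circadian mice, where 0.843% of all genes were called, Pla2g1b fell by 0.35 (edgeR adjusted p = 0.0193), Tff2 fell by 0.33 and Chrm3, the muscarinic receptor that drives secretion, rose by 0.45 ± 0.09.

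With TMM scaling, early males also had higher levels of 3 of the 9 other proteases and inhibitors, where 0.4% of all genes were called higher. These genes, named after their values were seen, were the trypsin inhibitor Spink1 (421 against 317 CPM, 0.41 ± 0.07 on the log2 scale, edgeR adjusted p = 0.0018) and the trypsinogens Prss2 (0.29 ± 0.05) and Try5 (0.87 ± 0.18), and trypsinogen genes share reads by estimation. Of the 15 amylases, lipases and nucleases 1 was called, the lipase-related Pnliprp2 (0.19 ± 0.05), and of the 13 granule genes 1, Dmbt1 (0.33 ± 0.08), both higher in males, and no transcription factor of 8 was called. In the late sex comparison, where 9.37% of all genes were called, 2 of the 9 other proteases and inhibitors were lower in males. They were Prss3 (-2.11 ± 0.64) and Try10 (-0.67 ± 0.11). Xbp1, 1 of 8 transcription factors, was higher in late males (0.26 ± 0.06).

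Markers of other cell types were read beside these results. Of all genes 0.893% were called in the early sex comparison. From early to late in disrupted mice 13.9% were called, 6.55% of all genes downward, and the counts of called markers below are to be read beside these shares. Early, the summed level of 8 tested lymphocyte markers of 10 ran from 3.93 to 15.2 CPM in males and from 10.9 to 108 CPM in females, with none called. Fibroblast markers ran from 189 to 256 CPM in males and from 218 to 290 CPM in females, with 1 of 8 called, Lum, lower in males. Macrophage markers ran from 39.7 to 49.9 CPM in males and from 46.3 to 104 CPM in females and islet markers from 269 to 419 CPM and from 326 to 461 CPM, with median log2 fold changes of -0.49 and -0.43 and none called, while 1 of 10 ductal markers, Krt8, was higher in males. From early to late in disrupted mice fibroblast markers went from a median of 256 to 199 CPM with 2 of 8 fallen, ductal markers from 251 to 246 CPM with 2 of 10 fallen, and 3 of 4 tested hepatocyte markers of 6 fell, from a range of 8.77 to 41.1 CPM to 6.14 to 12.9 CPM. In the same comparison 1 of 7 endothelial markers fell, Kdr. In the early condition comparison, where 4.56% of all genes were called, 2 of 4 tested hepatocyte markers were higher in disrupted mice. These were Alb (8.65 against 0.586 CPM) and Apoa2. Also higher were 1 of 10 ductal markers, Sox9, 1 of 7 endothelial markers, Kdr, and 1 of 8 tested lymphocyte markers, Lck.

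In the late sex comparison, where 9.37% of all genes were called, single markers of longer lists were called. Gcg, 1 of 10 islet markers, was lower in males (59.6 against 118 CPM), with a list median log2 fold change of -0.06. Kdr, 1 of 7 endothelial markers, was lower too (list median -0.08). Of 8 fibroblast markers Lum was lower and Dcn higher (list median 0.18), and of 8 macrophage markers Cd14 was higher (list median 0.37). For the sex difference of the time effect, in which Cela3b and Cpa1 were called, 3.69% of all genes passed. Among the markers Dcn (0.48 ± 0.11) and C1qc (1.09 ± 0.24) were called positive and Kdr (-0.47 ± 0.09) negative. Median log2 differences were 0.50 over 8 fibroblast markers, 0.86 over 8 macrophage markers and 0.02 over 7 endothelial markers. Over 7 adipocyte markers the median was 3.38, with none called. Adipocyte markers summed to 11.0 to 20.02 CPM in early males, 7.32 to 37.0 CPM in late males, 13.1 to 61.7 CPM in early females and 6.34 to 19.4 CPM in late females. The cell type genes named here were chosen after their values were seen, and their part in the results was not tested.

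The promoters were searched for 4 short motifs on both strands, from 250 bases before to 50 bases after the RefSeq start, and 8 of the 9 members had an entry. The circadian E-box CACGTG, which CLOCK and BMAL1 bind, was in 0 of 8 promoters and in 7.24% of all 27025 promoters. CANCTG, the form that Ptf1a binds with its partners, was in 8 of 8 and in 51.1% of all. TGGGAA, a form bound by Rbpj proteins, was in 5 of 8 and in 25.5% of all, and AAGGTCA, a form bound by Nr5a2, was in 1 of 8, Cela1, and in 4.66% of all. None of these 4 strings is part of another. In Cela1 (GRCm38.p6, chr15:100687921-100688170, minus strand), shown because it alone held AAGGTCA, capitals mark the matches to CANCTG and AAGGTCA.
Cela1: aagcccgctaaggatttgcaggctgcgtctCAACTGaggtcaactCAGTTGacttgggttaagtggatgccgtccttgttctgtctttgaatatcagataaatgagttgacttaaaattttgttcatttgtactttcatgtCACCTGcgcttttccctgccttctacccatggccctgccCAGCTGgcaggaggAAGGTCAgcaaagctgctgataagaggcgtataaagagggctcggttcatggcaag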

How the data were processed

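RNA-seq of whole pancreas from 24 mice was analysed from 1 deposited gene table. Its values are expected counts, unnormalized, that the authors estimated with RSEM for 51912 Ensembl genes, per the submitters' processing notes. Such an estimate shares out reads that fit several genes. Per the labels' protocols, RNA was isolated on columns and made into libraries with a TruSeq kit. Those notes also name STAR 2.5.3a, bcl2fastq 2.20, edgeR 3.28.0 and genome build GRCm38.p5. The role of each tool, the annotation and the strand setting were not given in the sources used here.

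Counts were rounded to whole numbers (7.97% of values were not whole), filtered with filterByExpr to 14000 genes and scaled by TMM. In R 4.3.3, edgeR 4.0.16 fitted 8 group means over all 24 mice with robust quasi-likelihood dispersion, and contrasts of them were tested. They weighted sexes, or conditions, equally, and p-values were adjusted by Benjamini-Hochberg over all genes tested; a called gene has an adjusted p under 0.05. An adjusted p over the 9 members alone was not computed. The members, gene lists and tests were chosen with earlier results of these data known. Symbols and coordinates came from GENCODE M21 (GRCm38), promoters from RefSeq (GRCm38.p6). All 9 members are described; other genes were named by rule where a listed acinar gene was called in a condition or time comparison, or where a gene was the closest by correlation among those with a mean log2 CPM of at least 5. Genes named from the sex comparisons and from the lists of other cell types fall outside that rule and were chosen after their values were seen.

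Alternatives were other scalings, no count filter, DESeq2 1.42.0, a replicate block, fits of the compared groups or of 1 sex alone, and leaving out each mouse. The code was tested on simulated data. Replicate pairs differed beyond sampling noise (chi-square per gene 9.03 to 58.94), so no library was counted as a duplicate, and replicates are taken as separate mice. Libraries of 31325562 to 62390463 counts make counting error small for all members but Cela3a.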

Additional observations from a re-analysis of the deposited data

Results flagged for a closer look

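Ctrl was at 16224 CPM in normal circadian late male 3, which stood apart below the other 5 normal circadian late mice (18216 to 19373 CPM). It was the one such value among 36 sets of 6 mice examined, and chance alone marks about 1 set in 20.

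The change of Cela3b from early to late differed between the sexes, by -0.41 on the log2 scale (male change minus female change). The same difference for Cpa1 was -0.33. Both came from a direct test of the difference, chosen after the values were seen, in which late males and late females differ in day as well as sex.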

How the results depend on the processing

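Of 2952 values of single members under the alternatives, 2759 kept their direction and their side of the threshold, 18 lost a call and 32 gained one. A further 137 changed sign where the value was below its SE and was not called, and 6 changed sign where it exceeded its SE or was called. These 6 were, late against early in normal circadian mice, Cpb1 in males alone (-0.0745), Cela3b (0.0284) and Ctrc (0.056) in females alone, and with library totals alone Cela1 (-0.0033) and Cela2a (-0.0603) in the early sex comparison and Cela2a (0.0615) in the sex difference of the time effect. The number of members called moved in these cases, the cause not tested. Without the filter on low counts it was 1 in the early condition comparison, 1 in normal circadian mice over time, 2 in disrupted mice over time and 2 in the late sex comparison. Of 27138 genes, that fit called 691, 211, 1895 and 1228 in these comparisons. In disrupted mice over time the number of members called was 2 with DESeq2, 2 with library totals, 3 in males alone and 0 in females alone. Over all genes these fits called 1860 of 14000, 1693 of 14000, 852 of 13344 and 1084 of 13699. For the early sex comparison 1 member was called with upper quartile scaling, with library totals or with the compared groups alone. Over all genes these fits called 114 of 14000, 794 of 14000 and 99 of 13605. In the late sex comparison 2 members were called with upper quartile scaling (1329 of 14000 genes called) or library totals (1174 of 14000). DESeq2 gave 4 in the sex difference of the time effect (632 of 14000 genes called). Leaving out 1 mouse gave 0 to 1 members called in the early condition comparison, 1 to 2 in disrupted mice over time, 0 to 3 in the early sex comparison, 1 to 2 in the late sex comparison, 2 to 4 in the sex difference of the time effect, and 0 to 0 in the other 5 comparisons. The late sex count was 2 without disrupted late female 1, where 1038 of 14319 genes were called. The count for the sex difference of the time effect was 4 without that mouse (528 of 14319 genes called). It was also 4 without normal circadian early female 1 (539 of 14390 genes called).

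Mice with the same replicate number were little more alike than others at the median. Their deviations had a median correlation of 0.0083 (range -0.2093 to 0.4017), against -0.007 for other numbers. Of 24 mice, 12 were closest to their own number among the 3 numbers. Whether the numbers mark a shared batch was not tested. With the replicate number as a block, 2 members were called in disrupted mice over time, where 1952 of 14000 genes were. Cela3a joined Ctrc there (edgeR adjusted p = 0.0498), and no other count moved. Calls over all genes split 1031 higher and 917 lower in that comparison, and 744 and 1246 with upper quartile scaling. Cela3a, at 129.9 to 759.8 counts, is the member that depth limits.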
